A study of Mus musculus with 50 samples.

Results

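Transcripts of 10 genes that mark neutrophils were followed through wound healing of the amputated mouse digit and in cultured macrophages. The genes were taken as a fixed list of symbols, S100a8, S100a9, Lcn2, Csf3r, Cxcr2, Retnlg, Ngp, Ltf, Camp and Elane, and all 10 were found among the 21954 genes of the deposited tables. The digits came from male C57Bl/6 mice of 9 to 10 weeks, in which the distal terminal phalanx (P3) of hindlimb digit 3 was amputated and the wound was left unsutured. RNA was taken from the mixed tissue around the wound bed. Non-regenerative digits, labelled NR, had lost 60% to 80% of P3 and were collected at 0, 3, 6, 12 and 24 hours and 3, 14 and 21 days (3 digits each) and at 7 days (5 digits). Of these 29 digits, 11 had lost 60% to 65%, which the study's text would count as intermediate, and the grouping of the labels was kept. Intermediate digits, labelled Medium, had lost 41% to 55% and were collected at 0 and 24 hours and 14 and 21 days (3 digits each). The macrophages were grown from bone marrow of female C57BL/6 mice of 6 to 8 weeks in medium conditioned by L929 cells, and were left naive (M0) or treated for 24 hours with IFN-γ and LPS (M1) or with IL-4 (M2), with 3 libraries each. The labels tie no digit to an animal and no macrophage library to a separate culture, so p-values measure the spread between these libraries.

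Neutrophils are made in the bone marrow, where successive precursors fill their granules. Azurophil granules hold elastase (Elane) and are filled first, and specific granules with lactoferrin (Ltf), the cathelicidin precursor (Camp), neutrophilic granule protein (Ngp) and lipocalin 2 (Lcn2) follow. Mature cells that leave the blood for a wound carry large amounts of S100a8 and S100a9, respond to G-CSF through Csf3r and follow CXC chemokines through Cxcr2. S100a8, S100a9 and Lcn2 are not confined to neutrophils, since injured epidermis can make them as well. In a bulk library, fewer cells of a type and less RNA per cell cannot be told apart.

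The digit libraries held 1468749 to 13011782 expected counts and the macrophage libraries 15683424 to 27904773. At 14 days the 77% non-regenerative digit stood apart, with Spearman's rho of 0.631 to 0.68 to the other 5 digits of that day against 0.906 or more among those 5. The 65% digit at 7 days held counts for 10072 genes, the fewest of all digits, and the 75% digit at 3 hours was the shallowest. Normalized TPM is transcript abundance corrected for length and depth, here also scaled between libraries. In the 77% digit of day 14 it summed to 3362791, against 836756 and 939809 in the other non-regenerative digits of that day. In 5 pairs of digits both carry the same mark, date and side in their labels. One pair is of the same time, the 80% non-regenerative and the 42% intermediate digit of day 14. The others are the 62% digit of 0 hours and the 67% digit of 12 hours, the 70% digit of 3 days and the 63% digit of 7 days, and the 53% and 55% intermediate digits of 0 hours, each with a 64% digit of 12 hours. Keratinocyte RNA was abundant in the digits, where 6 basal and suprabasal genes (Krt5, Krt14, Krt1, Krt10, Trp63 and Dsg3) summed to 21266 to 59833 normalized TPM in 40 digits and to 116480 in the 77% digit of day 14, or 2.51% to 5.91% of the normalized TPM of a digit. Ly6g, a surface marker of mouse neutrophils outside the list, was at 0 in every digit of 12 hours and 7 days and reached at most 4.08 normalized TPM in any digit.

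The 10 genes split by level. Over the 41 digits, S100a9 held 55.7% and S100a8 20% of the summed counts of the list, followed by Lcn2 with 9.42%, Csf3r with 6.9%, Cxcr2 with 6.3% and Retnlg with 1.31%. Elane, Ngp, Ltf and Camp together stayed at or below 13.9 normalized TPM in every digit. None of these 4 granule genes passed the filter on low counts in any comparison of digits, so the changes described for digits concern the other 6 genes. A gene was called where the edgeR quasi-likelihood test gave a Benjamini-Hochberg adjusted p under 0.05 and the group means of normalized counts, with 1 added, differed over 2-fold.

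**Figure D1:**
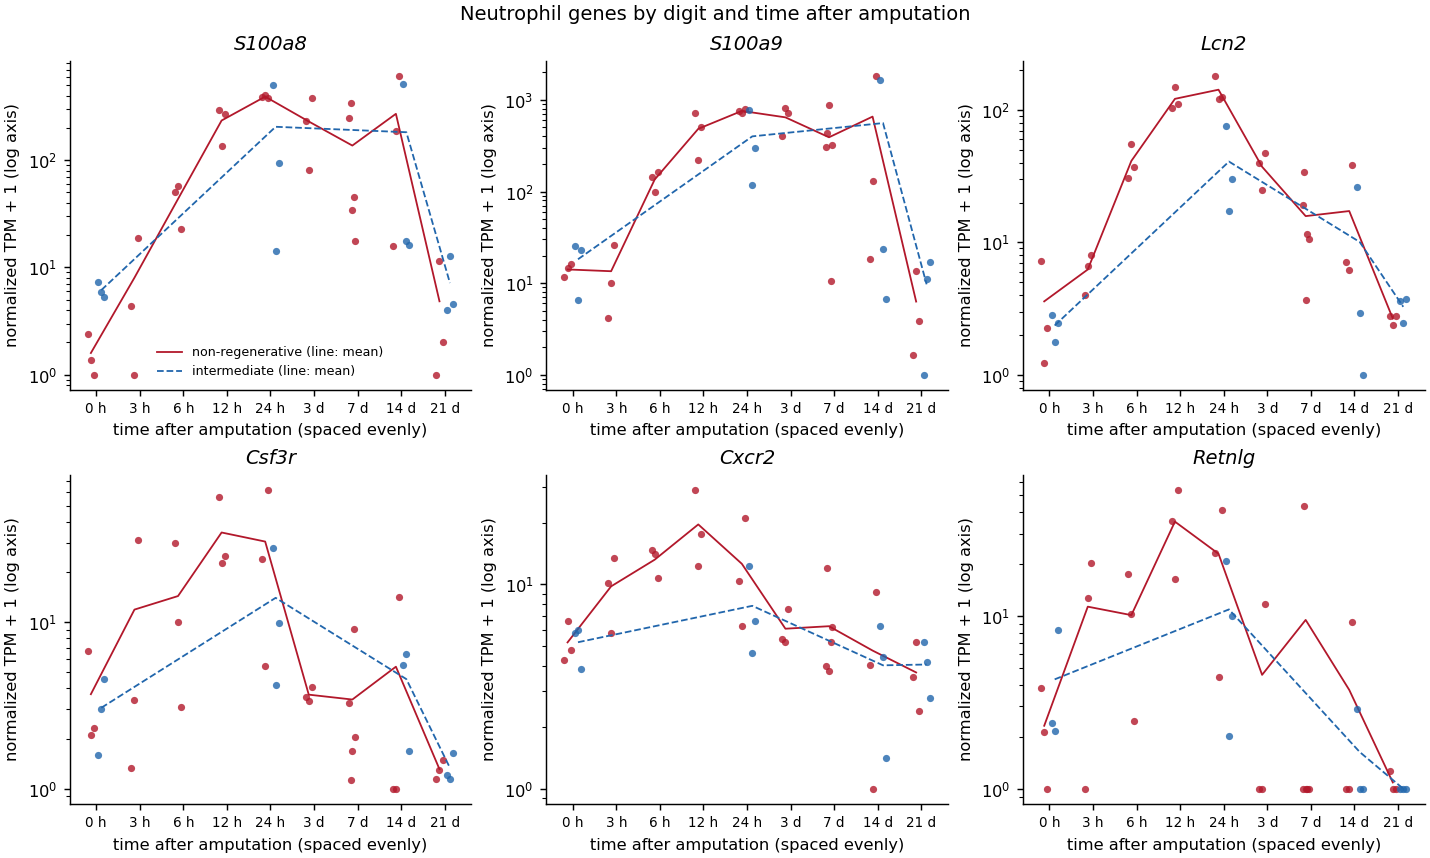
Normalized TPM plus 1 (log axis) of the 6 detected genes against time after amputation (evenly spaced), 1 point per digit, with lines through the group means of non-regenerative (solid) and intermediate (dashed) digits. S100a8 and S100a9 have their highest non-regenerative mean at 24 hours, with digits of day 14 spread from low to high (S100a8 from 14.7 to 608), while Csf3r, Cxcr2 and Retnlg have their highest mean at 12 hours.

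S100a8 and S100a9 encode the subunits of calprotectin, a calcium- and zinc-binding protein that neutrophils release in quantity. Their genes lie close together on chromosome 3 (GRCm38), S100a8 at chr3:90668978-90670035 on the forward strand and S100a9 at chr3:90692632-90695721 on the reverse strand. The bases before their starts are shown because the genes moved together in most digits, and capitals mark matches to either of the short motifs searched on both strands, TTGCNNAA (a core of C/EBP binding) and AGGAAGT (an ETS core of the kind PU.1 binds). Sequences are those of RefSeq (GRCm38.p6), 5′ to 3′ on the gene's strand, at chr3:90668821-90668977 for S100a8 and chr3:90695722-90695971 for S100a9.
S100a8: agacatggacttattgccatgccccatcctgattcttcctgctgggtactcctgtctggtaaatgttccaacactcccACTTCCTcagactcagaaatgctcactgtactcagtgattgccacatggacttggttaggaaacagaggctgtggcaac
S100a9: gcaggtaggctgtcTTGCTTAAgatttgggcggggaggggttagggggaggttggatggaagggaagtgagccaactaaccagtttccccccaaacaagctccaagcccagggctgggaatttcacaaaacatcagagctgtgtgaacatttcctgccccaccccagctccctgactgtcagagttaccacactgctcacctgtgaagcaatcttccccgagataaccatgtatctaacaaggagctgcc
TTGCNNAA occurred in the 250 bases upstream of the start of 5 of the 10 genes (S100a9, Lcn2, Ngp, Ltf and Retnlg) and in 9.56% of 32851 promoters of all genes. AGGAAGT occurred in S100a8 and Elane and in 7.69% of all promoters. The motifs were chosen with the expression results known, and a match of letters is a description and not a site of binding.

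At 0 hours S100a8 was nearly absent from non-regenerative digits, with 1.42 and 0.359 normalized TPM in the 62% digits and 0 in the 75% digit. At 6 hours the values were 22, 49.2 and 56.3, at 12 hours 136, 270 and 294, and at 24 hours 380, 390 and 401. Each digit from 6 hours to 24 hours lay above every digit at 0 hours, and the 24-hour digits were nearly equal. Because the 0-hour digits held 2, 1 and 0 counts, the change is given as a ratio of summed counts with an exact interval for counting error. It was 87 (29.4 to 425) at 6 hours, 498 (170 to 2419) at 12 hours and 893 (305 to 4334) at 24 hours. The edgeR adjusted p-values were 0.0063, 0.00033 and 4.05e-05. In every comparison of non-regenerative digits with 0 hours that tested it, S100a8 passed the filter only through the later group. It therefore had to differ, and its p-values describe the change rather than test it.

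S100a9 was already present at 0 hours, at 10.7, 13.6 and 15 normalized TPM. It stood at 3.19, 9.05 and 25.2 at 3 hours and at 97.6, 142 and 163 at 6 hours. The 3-hour digits overlapped those at 0 hours, and the 6-hour digits did not. The values then reached 222, 502 and 723 at 12 hours and 719, 757 and 795 at 24 hours. The log2 change of S100a9 was 3.39 ± 0.29 (SE) at 6 hours (adjusted p = 0.00174, edgeR), 5.23 ± 0.46 at 12 hours (0.000651) and 5.88 ± 0.21 at 24 hours (1.3e-05), the last a 58.7-fold difference.

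Lcn2 encodes lipocalin 2, which binds bacterial siderophores and so withholds iron. Its level was 0.23, 1.26 and 6.26 normalized TPM at 0 hours and 3.03, 5.61 and 7.09 at 3 hours. It was 29.9, 36.1 and 54.9 at 6 hours, 102, 111 and 149 at 12 hours and 121, 124 and 180 at 24 hours. From 6 hours on, every acute digit exceeded the highest 0-hour digit. The log2 changes were 4.21 ± 0.84 (adjusted p = 0.0291, edgeR), 5.89 ± 0.73 (0.00236) and 6.13 ± 0.71 (0.00165). The 0-hour digits, with 1 to 17 counts, did not carry Lcn2 through the filter by themselves, and it passed through the later digits. Its p-values against 0 hours therefore describe the change rather than test it. The call at 6 hours was lost in 4 of the 6 fits that left out 1 digit, with adjusted p up to 0.127 (without the 62% digit with 0.23, the 75% digit at 0 hours, or the 74% or 76% digit at 6 hours).

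Csf3r encodes the G-CSF receptor, which drives neutrophil production and survival. It was measured at 1.1, 1.3 and 5.67 normalized TPM at 0 hours, and at 0.339, 2.41 and 29.9 at 3 hours. At 6 hours the digits spread from 2.08 over 9 to 28.9, overlapping the 0-hour digits, and the log2 change of 2.08 ± 0.89 had an adjusted p of 0.19. The 12-hour digits, at 21.5, 23.9 and 55, all lay above 0 hours, with a log2 change of 3.72 ± 0.57 (adjusted p = 0.00537, edgeR). At 24 hours 1 digit lay within the 0-hour range of normalized TPM, with 4.42 in the 68% digit against 22.9 and 60.9 in the others. The log2 change there was 3.68 ± 0.9 (adjusted p = 0.0279), and the call was lost without the 63% or 73% digit of 24 hours or the 62% digit with 1.1 or the 75% digit of 0 hours, with adjusted p up to 0.0991.

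Cxcr2 encodes the receptor for CXCL1, CXCL2 and their relatives. It had the smallest change of the detected genes, from 3.26, 3.76 and 5.58 normalized TPM at 0 hours to 9.8, 13.1 and 13.7 at 6 hours and 11.3, 16.7 and 27.9 at 12 hours. All 6 of these acute digits exceeded the 0-hour digits. Cxcr2 rose 2.95-fold at 6 hours (log2 1.56 ± 0.3, adjusted p = 0.0254, edgeR) and 4.21-fold at 12 hours (log2 2.07 ± 0.39, adjusted p = 0.0108). Its call at 6 hours was lost in 4 of 6 fits that left out 1 digit and that at 12 hours in 1, without the 75% digit of 0 hours (adjusted p = 0.0506). At 24 hours the values were 5.26, 9.34 and 20.2, with the 68% digit again lowest and within the 0-hour range (log2 1.41 ± 0.47, adjusted p = 0.0754). Expected counts of Cxcr2 and Csf3r were not all whole numbers, so reads were partly shared with other genes, and the values of both carry that uncertainty. Fractional counts also occurred for S100a8 and S100a9, such as 59.9 in a 6-hour digit and 6.81 in an M1 library.

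Retnlg encodes a resistin-like protein expressed in mouse bone marrow and neutrophils. It was counted at 0 to 5 reads per digit at 0 hours (0 to 2.81 normalized TPM) and reached 15.4, 34.6 and 52.6 normalized TPM at 12 hours. The log2 change at 12 hours was 4.89 ± 0.88 (adjusted p = 0.00935, edgeR), in the only comparison of non-regenerative digits with 0 hours in which it passed the filter, through its high group. At 24 hours it was 3.41, 22.2 and 40.2, with the lowest value once more in the 68% digit.

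**Figure D2:**
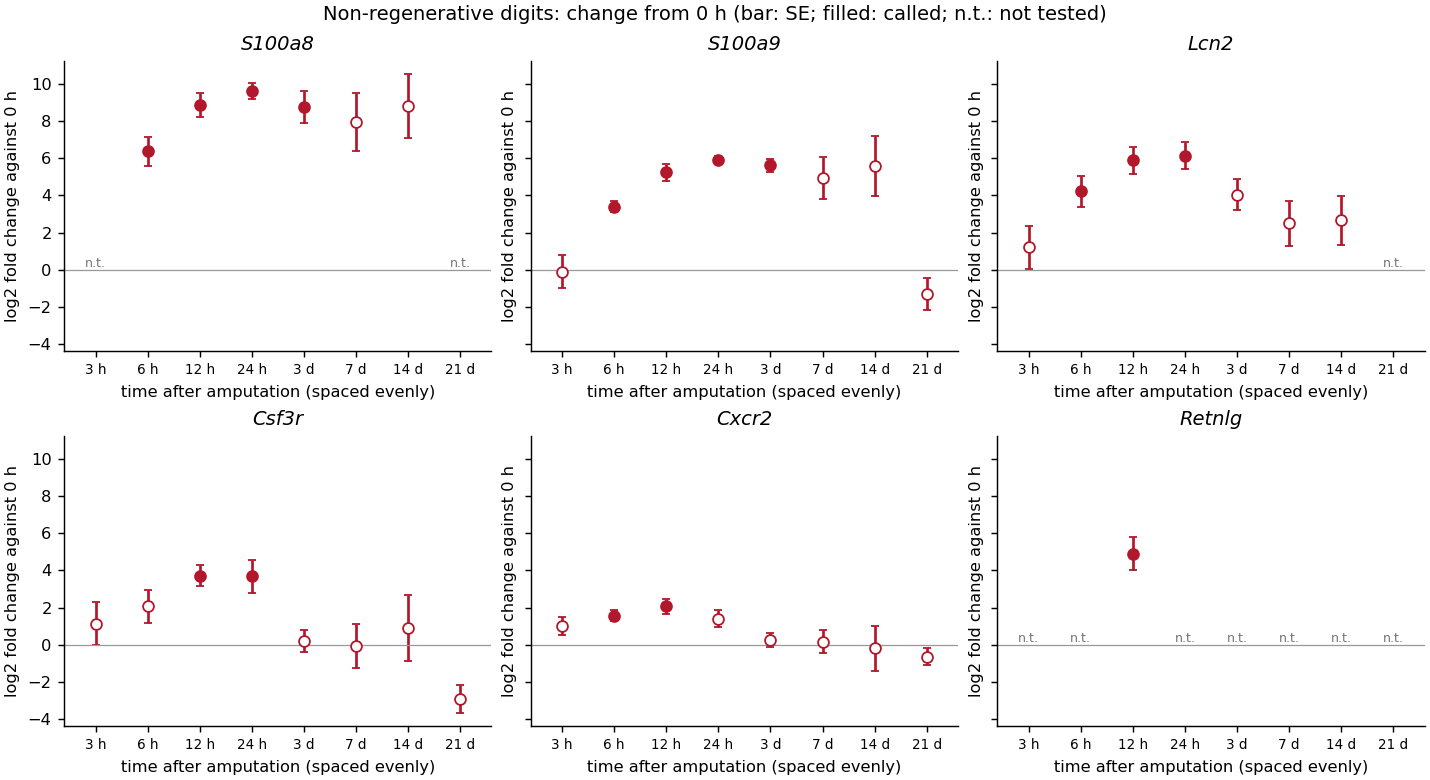
Log2 fold change against 0 hours (edgeR, bar: SE) of the 6 genes at each later time in non-regenerative digits; filled circles were called and n.t. marks genes that did not pass the filter. S100a8, S100a9 and Lcn2 are called at 6, 12 and 24 hours, all 6 genes at 12 hours, and no gene at 7 days or later; the S100a8 values rest on 3 counts at 0 hours.

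By time point, 0 of 10 genes were called at 3 hours (0 of 4 tested had an unadjusted p under 0.05 in edgeR, and DESeq2 called 0), against a background of 0% of all tested genes called higher. At 6 hours 4 of 5 tested genes were called higher (background 3.23%), at 12 hours 6 of 6 (6.76%), at 24 hours 4 of 5 (5.57%) and at 3 days 2 of 5 (0.557%). No gene of the list was called lower at 6, 12 or 24 hours or 3 days, against 1.62%, 4.64%, 5.14% and 0.166% of all genes. Every one of these comparisons uses the same 0-hour digits. Leaving out 1 digit gave 2 to 4 calls at 6 hours, 5 to 6 at 12 hours, 3 to 6 at 24 hours and 2 to 3 at 3 days. The count at 6 hours was 2 without the 62% digit of 0 hours with S100a8 at 0.359, the 75% digit of 0 hours or the 74% digit of 6 hours. That at 12 hours was 5 without the 75% digit of 0 hours, and 6 without either digit of the pair that shares label details. At 24 hours it was 3 without the same 62% or the 75% digit of 0 hours or the 63% or 73% digit of 24 hours, and 6 without the 68% digit. At 3 days it was 3 without the 62% digit of 0 hours with the highest Csf3r. At 7, 14 and 21 days 0 were called by edgeR, with 2, 2 and 1 genes at an unadjusted p under 0.05, and backgrounds of 0.0307%, 0% and 0.394% called higher and 0.023%, 0% and 0.0583% lower. Without the 65% or the 73% digit 1 gene was called at 7 days. DESeq2 called S100a8 and S100a9 higher at 7 and 14 days (background 0.768% and 1.79%) and Csf3r lower at 21 days (0.425%). A gene that passes the filter only through a high group has to differ, so the shares of tested genes describe the list and are not a test of it.

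The date in the labels falls into an earlier and a later period, which overlap with the groups only in part. In the earlier period the 0-hour group is 1 digit, with 1.42 normalized TPM of S100a8 and 5.67 of Csf3r, and all 12-hour digits are of that period, with 136 to 294 and 21.5 to 55. For 24 hours the earlier digits held Csf3r at 22.9 and 60.9, and the later digit, the 68% one, held 4.42 against 1.1 and 1.3 in the later digits of 0 hours. S100a8 was 380 and 390 in the earlier and 401 in the later digit of 24 hours. With all 41 digits in 1 fit, 10 of the 18 calls in non-regenerative digits were lost, and as many with the period as a term. In both fits S100a8, S100a9 and Lcn2 kept their calls at 12 and 24 hours, Lcn2 at 6 hours and S100a8 at 3 days. The calls of Csf3r, Cxcr2 and Retnlg were lost in both, as were those of S100a8 and S100a9 at 6 hours (edgeR adjusted p = 0.0997 and 0.233 with the period, 0.0929 and 0.356 without) and of S100a9 at 3 days (0.0841 and 0.158).

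From 24 hours to 3 days Lcn2 and Csf3r were called lower. Lcn2 fell from 121 to 180 normalized TPM at 24 hours to 24, 38.5 and 46.4 at 3 days, a log2 change of -1.98 ± 0.29 (adjusted p = 0.0148, edgeR). Csf3r went to 2.38, 2.55 and 3.08, below every 24-hour digit, with a log2 change of -3.38 ± 0.76 (adjusted p = 0.0488). These were 2 of 6 tested genes, against 1.5% of all genes called lower and 1.26% higher in that window. Both calls were lost without the 63% or the 73% digit of 24 hours (adjusted p up to 0.0828 for Lcn2 and 0.158 for Csf3r), and Csf3r also lost its call without any 1 of the 3-day digits. Neither was called with all digits in 1 fit (adjusted p = 0.55 for Lcn2 and 0.439 for Csf3r, edgeR).

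Calprotectin transcripts stayed high at 3 days while the receptors did not. S100a8 stood at 80.5, 229 and 376 normalized TPM and S100a9 at 407, 711 and 814, all above 0 hours (S100a9 log2 5.61 ± 0.35, adjusted p = 0.000749; S100a8 ratio of summed counts 455, interval 155 to 2209, adjusted p = 0.00571, edgeR). Cxcr2 was at 4.22, 4.43 and 6.55 and Csf3r at 2.38 to 3.08, both overlapping the 0-hour digits (log2 0.28 ± 0.37 and 0.21 ± 0.6, adjusted p = 0.831 and 0.929). From 24 hours to 3 days the log2 change of S100a9 was -0.23 ± 0.26 (adjusted p = 0.687) and that of S100a8 -0.79 ± 0.43 (0.363). Whether the genes changed by unequal amounts was not tested as such.

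Activated keratinocyte genes moved with the calprotectin genes. The summed level of 6 such genes (Krt6a, Krt6b, Krt16, Krt17, Sprr1b and Sprr2d) was 1724 to 2425 normalized TPM at 0 hours, 10939 to 11856 at 6 hours, 17619 to 34972 at 12 hours, 37590 to 47577 at 24 hours and 13220 to 31448 at 3 days. Of the 6, 5 were called higher at 6 hours, 6 at 12 and 24 hours and 4 at 3 days, against 3.23%, 6.76%, 5.57% and 0.557% of all tested genes, and none of the 6 was at 0 in all digits of a group. In the 68% digit of 24 hours, where Csf3r, Cxcr2 and Retnlg were low, the sum was 47577, and S100a8, S100a9 and Lcn2 were at 401, 719 and 121. That sum was the highest of its group by level but not by share of each digit's normalized TPM. The shares were 4.65%, 4.19% and 3.97% in the 63%, 68% and 73% digits. The basal and suprabasal genes summed to 26882 to 55507 at 0 hours and 28063 to 49868 at 24 hours. The part of keratinocytes in the S100a8, S100a9 and Lcn2 values was not tested.

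**Figure D3:**
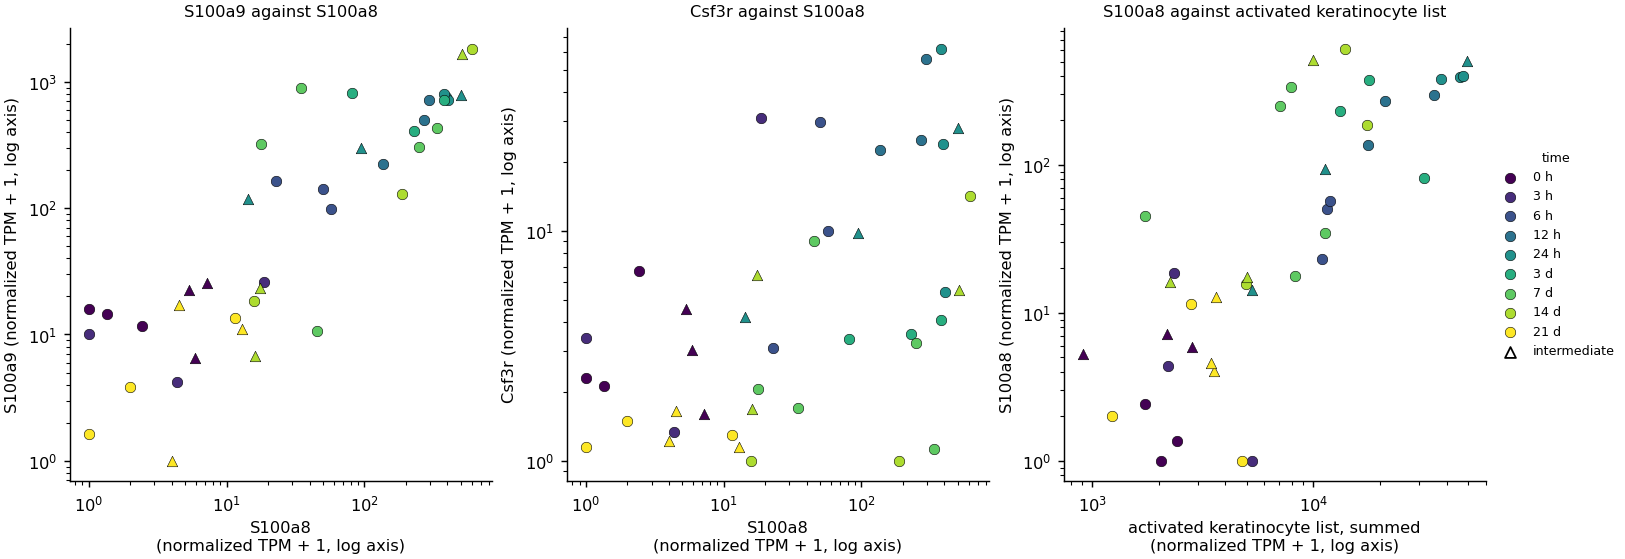
Each point is 1 of 41 digits (circles non-regenerative, triangles intermediate, colour: time), with normalized TPM plus 1 on log axes: S100a9 against S100a8, Csf3r against S100a8, and S100a8 against the summed activated keratinocyte genes. S100a8 and S100a9 spread along 1 band, while digits with over 300 normalized TPM of S100a8 hold Csf3r from 0.129 to 60.9.

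The ratio of S100a9 to S100a8 lay in a narrower range in non-regenerative digits of 12 and 24 hours than in the other groups of the first 3 days. Over those 6 digits it ran from 1.64 to 2.46 (normalized TPM of S100a9 over that of S100a8). Over all 27 digits with at least 20 counts of both genes it had a median of 1.89 and ran from 0.693 in the 77% digit of day 14 to 26.6 in the 72% digit of day 7. The 6-hour digits gave 1.73, 2.88 and 7.4, the 3-day digits 1.78, 1.89 and 10.1, and the intermediate digits of 24 hours 1.55, 3.18 and 8.96. In each of these 3 groups 1 digit lay far above the other 2.

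At 7 days the digits scattered. S100a8 ran from 16.8 over a median of 44 to 337 normalized TPM and S100a9 from 9.66 over 319 to 889. The 73% digit had the lowest S100a9 and the highest Csf3r (8.03), and the 72% digit had the highest S100a9 with S100a8 at 33.5. All 5 digits lay above 0 hours for S100a8 (adjusted p = 0.156) and 4 of 5 for S100a9 (log2 4.94 ± 1.14, adjusted p = 0.277, edgeR). Retnlg was at 42.5 in the 65% digit, the 1 with the fewest genes detected, and at 0 in the other 4.

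At 14 days the values turned on single digits. In the 80% non-regenerative digit S100a9 was at 1822 and S100a8 at 608 normalized TPM, the highest of all 41 digits, with Lcn2 at 37.5, Csf3r at 13.2, Cxcr2 at 8.22 and Retnlg at 8.21. In the 63% digit S100a9 was at 17.4 and S100a8 at 14.7, and in the 77% digit at 129 and 186, with Csf3r at 0 in both. The 3 digits lay above 0 hours for S100a8 and S100a9, but the log2 change of S100a9, 5.55 ± 1.61, had an adjusted p of 0.388. Without the 80% digit 0 genes of the list were called, as with it. The activated keratinocyte genes summed to 4959, 17401 and 13825 normalized TPM in the 63%, 77% and 80% digits. As a share of each digit's normalized TPM, whose total was much larger in the 77% digit, they made up 0.593%, 0.517% and 1.47%, so the 80% digit was highest by share and not by level. The 10 genes made up 0.00491%, 0.00954% and 0.266%, with the 80% digit highest on either scale. Its ligand genes (Csf3, Cxcl1, Cxcl2, Cxcl3, Cxcl5 and Ppbp) summed to 706 normalized TPM against 45.6 and 12.7 in the 63% and 77% digits.

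By 21 days the list was back at low levels. S100a8 was at 0, 1 and 10.5, S100a9 at 0.621, 2.84 and 12.4 and Lcn2 at 1.39, 1.78 and 1.8 normalized TPM in non-regenerative digits. Csf3r, at 0.151, 0.299 and 0.483, lay below every 0-hour digit (log2 -2.89 ± 0.74, adjusted p = 0.277, edgeR). From 14 to 21 days S100a8, S100a9 and Lcn2 were lower in every digit, with 0 calls in edgeR, 3 genes at an unadjusted p under 0.05 and 2 calls in DESeq2 (S100a8 and S100a9, background 0.0514%). The 3 other early windows, 3 to 6, 6 to 12 and 12 to 24 hours, gave 0 edgeR calls, with 3, 5 and 1 genes at an unadjusted p under 0.05 and edgeR backgrounds of 0.0895%, 0.0641% and 0% called higher and 0.0163%, 0% and 0% lower. DESeq2 called 2 genes from 3 to 6 hours (background 1.51%), 3 from 6 to 12 hours (0.93%) and 0 from 12 to 24 hours.

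In order of group means over the 13 digit groups, S100a8 and S100a9 were highest at 24 hours in non-regenerative digits (391 ± 10.8 and 757 ± 37.9 normalized TPM, SD, n = 3) and Lcn2 at the same time (141 ± 33.1). Csf3r (33.5 ± 18.7), Cxcr2 (18.6 ± 8.47) and Retnlg (34.2 ± 18.6) were highest at 12 hours. Neighbouring groups in these orders separated without overlap only between the 6-hour non-regenerative group and the next lower group for S100a8 and S100a9, and between the 12-hour and the 6-hour non-regenerative groups for Lcn2.

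The granule genes stayed at the edge of detection in digits. Elane was counted once, in the 42% intermediate digit of day 14, and was at 0 in 40 digits. Ngp had a count in 10 digits, Camp in 11 and Ltf in 13, with at most 12, 6 and 18 reads. Ltf reached 8.31 and 11.2 normalized TPM in single digits at 12 and 24 hours, and at 24 hours all 3 digits held a few reads (4, 9 and 18). Its summed counts were 11.5 times those of 0 hours (interval 3.58 to 58.7, counting error only, no test across digits). In the digits of 6 hours to 14 days the 4 genes made up at most 0.972% of the normalized TPM of the list. Their share was larger where the list as a whole was low. It was 2.43% to 8.13% in non-regenerative digits at 0 hours, 0% to 16.7% at 3 hours and 0% to 2.21% in intermediate digits at 21 days. A count of 0 in a digit allows up to 3 reads of its total, so low levels of these transcripts were not detectable at this depth.

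Intermediate digits were sampled at 24 hours, where the 41% digit was far above the others. S100a8 was at 13.2, 93.2 and 505 normalized TPM in the 50%, 52% and 41% digits, against 4.3 to 6.25 at 0 hours. S100a9 was at 118, 296 and 783 against 5.54 to 24.4, and Lcn2 at 16.3, 28.9 and 74.3 against 0.763 to 1.83. All 3 digits lay above every 0-hour digit for these 3 genes. The log2 changes were 5.28 ± 1.2, 4.56 ± 0.77 and 4.85 ± 0.69, with adjusted p of 0.131, 0.103 and 0.0926 (edgeR), so 0 genes were called, with 4 at an unadjusted p under 0.05. Lcn2 passed the filter here through the 24-hour digits only. DESeq2 called 4 (S100a8, S100a9, Lcn2 and Csf3r; background 1.4%). With all digits kept, the edgeR background was 0.0152% of genes called higher. Without the 50% digit edgeR called 3 genes and without the 41% digit 1, in fits whose backgrounds are not given here.

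The receptors and Retnlg followed the same order of digits at 24 hours. Csf3r was at 3.22, 8.82 and 26.9, Cxcr2 at 3.63, 5.62 and 11.3 and Retnlg at 1.03, 8.95 and 19.8 normalized TPM in the 50%, 52% and 41% digits. The 50% digit lay within the 0-hour range for Csf3r and Cxcr2 and below it for Retnlg (1.16 to 7.34 at 0 hours). The activated keratinocyte sum ran in that order too, at 5288, 11296 and 49248.

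At 14 days the 42% intermediate digit, which shares label details with the 80% non-regenerative digit, was far above the others of its group in calprotectin transcripts and Lcn2. It held S100a9 at 1645 and S100a8 at 512 normalized TPM, against 22.3 and 16.5 in the 52% and 5.72 and 15.1 in the 54% digit. Lcn2 was at 25.3, 1.92 and 0 in the 42%, 52% and 54% digits. Csf3r, at 4.53, 5.43 and 0.685, was not highest in the 42% digit. The list had 0 calls in edgeR (2 genes at an unadjusted p under 0.05) and 0 in DESeq2, with a background of 1.49% called higher and 0.187% lower. At 21 days S100a8 was at 3.03 to 11.9 and S100a9 at 0 to 16, with 0 calls in edgeR (0 genes at an unadjusted p under 0.05), 1 in DESeq2 (Csf3r, lower, background 0.473%) and a background of 1.23% called higher and 0.165% lower.

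Intermediate and non-regenerative digits were then compared at the same times. At 0 hours S100a8 was at 4.3, 4.9 and 6.25 normalized TPM in intermediate and at most 1.42 in non-regenerative digits, without overlap, on 6, 10 and 21 reads against 3 reads in all (ratio 12, interval 3.79 to 60.7; adjusted p = 0.993, edgeR). At 24 hours Lcn2 was lower in every intermediate digit (16.3 to 74.3 against 121 to 180), with a log2 difference of -1.84 ± 0.49 and an adjusted p of 0.327. S100a8 (log2 -0.95 ± 0.9), S100a9 (-0.94 ± 0.55), Csf3r (-1.41 ± 0.85), Cxcr2 (-0.7 ± 0.55) and Retnlg (-1.15 ± 0.97) overlapped. At 0 hours, 24 hours, 14 days and 21 days 0 genes of the list were called by edgeR, with 1, 1, 0 and 0 at an unadjusted p under 0.05. DESeq2 called 1, Lcn2 at 24 hours (background 0.135%), and the edgeR background was 0% in either direction at 0 hours, 24 hours and 14 days and 0.0437% higher and 0.604% lower at 21 days.

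Leaving out the 41% intermediate digit gave 3 edgeR calls at 24 hours. The share of all genes called in that fit is not given here. At 14 days 0 genes were called both with and without the digits that share label details. The difference between the groups in the change from 0 hours was also tested, and 0 genes of the list were called at 24 hours, 14 days or 21 days (background 0% in each direction; 1, 0 and 0 at an unadjusted p under 0.05 in edgeR, 0 in DESeq2). The estimate for S100a8 at 24 hours was -4.32 ± 1.91 on the log2 scale (adjusted p = 0.609, edgeR). It rests on 3 reads of S100a8 in all in the non-regenerative digits of 0 hours. The difference between the groups at 24 hours itself was -0.95 ± 0.9. Without the 41% digit 1 gene was called, in a fit whose background is not given here. Standard errors of 0.71 to 1.91 at 24 hours leave differences of several fold in either direction undetected.

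Other neutrophil genes were counted the same way. Of 20 further genes, 4 of 6 tested were called higher at 6 hours, 10 of 11 at 12 hours, 6 of 9 at 24 hours and 1 of 8 at 3 days in non-regenerative digits, against 3.23%, 6.76%, 5.57% and 0.557% of all tested genes. Some of them, such as Fpr2, Trem1 and Trem3 at 12 hours, passed the filter through the later group only. These had to differ, and their p-values describe the change rather than test it. Their median log2 changes at 6, 12 and 24 hours were 2.19, 4.93 and 4.66, against -0.03, -0.03 and -0.04 over all tested genes. Clec4d, a lectin receptor of myeloid cells, went from 7.09 ± 2.87 normalized TPM (SD, n = 3) at 0 hours to 181 ± 63.2 at 12 hours (log2 4.95 ± 0.42, adjusted p = 0.000551, edgeR). Trem1, an amplifier of myeloid inflammation, rose by 7.31 ± 0.71 (0.000853), and Hdc, which makes histamine, by 5.28 ± 0.56 (0.00119). Mmp9, a gelatinase of neutrophil granules that other cells make too, rose from 4.86 ± 3.6 to 115 ± 44.9 at 24 hours (log2 4.79 ± 0.59, adjusted p = 0.00209) and stood at 155 ± 95.9 at 14 days. Markers of precursors, Mpo, Ctsg, Cebpe and Gfi1, did not pass the filter in these comparisons.

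Of the ligands, Cxcl1, Cxcl2, Cxcl3 and Cxcl5, which act through Cxcr2, and Csf3, the ligand of Csf3r, were all called higher at 12 and 24 hours. Of all tested genes, 6.76% and 5.57% were called higher at these times. Cxcl1 was at 37.4 ± 43.3 normalized TPM at 0 hours, 563 ± 196 at 6 hours, 859 ± 489 at 12 hours and 78.9 ± 34 at 3 days (SD, n = 3). Csf3 was at 0 in all 3 digits of 0 hours and at 5.49 to 13 at 12 hours, and Cxcl3 at 0 and at 30.7 to 68.5. Both, and Cxcl5 with at most 0.884 at 0 hours, passed the filter only through the later group. Ppbp, a platelet chemokine, went the other way, with 31.9 to 383 at 0 hours and 4.94 to 11.6 at 12 hours (log2 -4.03 ± 0.93, adjusted p = 0.0219, edgeR). From 24 hours to 3 days Csf3, Cxcl1 and Cxcl5 were called lower, against 1.5% of all tested genes. Csf3r and Lcn2 fell in the same window. Erythroid genes, a sign of blood in the sample, summed to 1570 to 2860 at 0 hours and 50.6 to 280 at 24 hours, and B-lineage genes to 7.75 to 18.1 and 0 to 0.454.

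**Figure D4:**
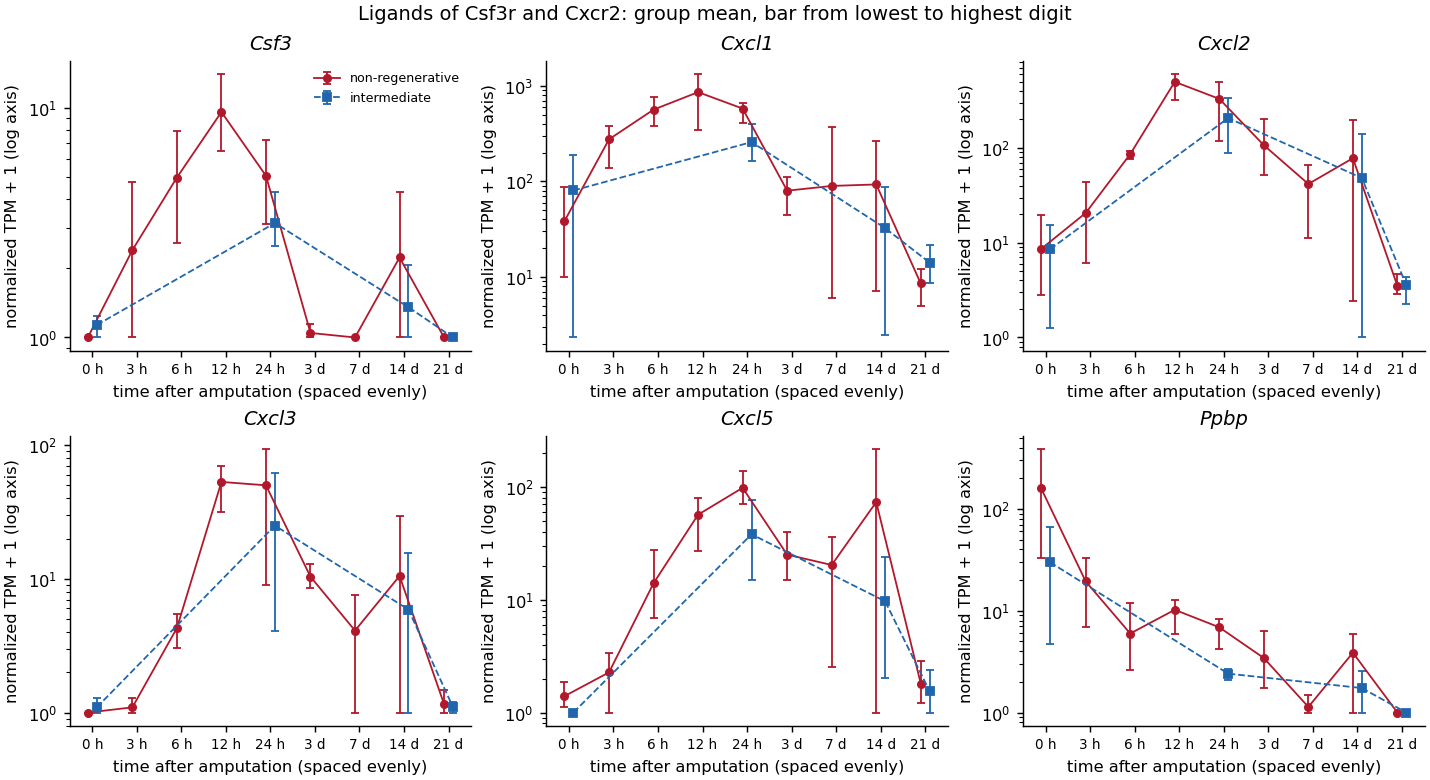
Group mean of normalized TPM plus 1 (log axis) of 6 ligand genes against time after amputation (evenly spaced), with bars from the lowest to the highest digit (n = 3, at 7 days 5), for non-regenerative (circles) and intermediate (squares) digits. Csf3, Cxcl1, Cxcl2 and Cxcl3 have their highest non-regenerative mean at 12 hours and Cxcl5 at 24 hours, and Ppbp is highest at 0 hours.

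Across the 41 digits, which share libraries and time courses, the genes outside the list whose normalized TPM ranked most like S100a8 were Clec4d (Spearman's rho 0.89), Tmem45b (0.88) and Gsr (0.87), among 13691 genes. For Cxcr2 they were Usp25 (0.84), Areg (0.81) and Cxcl1 (0.81). Within the list, rho was 0.87 between S100a8 and S100a9, 0.81 between S100a8 and Lcn2, 0.78 between Cxcr2 and Retnlg, and 0.53 between S100a8 and Csf3r. For Ngp, which had a count in 10 digits, no gene exceeded 0.5, and none is named. These are descriptions without a test.

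The granule genes, at the edge of detection in digits, were present in naive macrophages, at levels below those of S100a8 and S100a9. In M0 the values were 70.3, 72.2 and 73.6 normalized TPM for Ngp, 16.3, 16.7 and 17.4 for Ltf, 5.34, 5.5 and 6.84 for Camp and 2.1, 2.68 and 2.86 for Elane. These 4 genes made up 20.1% to 20.8% of the list's normalized TPM in M0, 13.4% to 15.3% in M2 and 0.138% to 0.289% in M1. Ngp and Ltf lie on chromosome 9, with Camp, and the bases before their starts are shown because both genes fell in M1, with TTGCNNAA in capitals (RefSeq, GRCm38.p6, forward strand, chr9:110419558-110419746 for Ngp and chr9:111019042-111019270 for Ltf).
Ngp: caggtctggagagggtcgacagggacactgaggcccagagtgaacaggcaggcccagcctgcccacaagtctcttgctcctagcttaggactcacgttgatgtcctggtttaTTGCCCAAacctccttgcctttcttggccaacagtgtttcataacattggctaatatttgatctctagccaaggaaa
Ltf: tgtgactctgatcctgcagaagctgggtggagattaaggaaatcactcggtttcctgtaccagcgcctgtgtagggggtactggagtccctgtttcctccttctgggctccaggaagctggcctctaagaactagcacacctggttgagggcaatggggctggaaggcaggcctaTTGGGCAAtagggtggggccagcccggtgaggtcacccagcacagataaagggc

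In M1 the granule genes were nearly gone. Ngp was at 0.488, 0.715 and 1.36 normalized TPM, Ltf at 0.226 to 0.935 and Camp at 0.285 to 1.45, all below every M0 library. The log2 changes were -6.26 ± 0.15 for Ngp (adjusted p = 1.43e-12, edgeR), -5.81 ± 0.14 for Ltf (1.98e-12) and -2.75 ± 0.39 for Camp (3.07e-05). Elane and Retnlg had 0 counts in all 3 M1 libraries, against 23 to 37 and 39 to 63 counts in M0. With 3 counts in the smallest M1 library as a floor, Elane was at least 3.71-fold and Retnlg at least 6.76-fold lower (adjusted p = 1.34e-05 and 2.87e-06).

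The calprotectin genes fell by unequal amounts in M1. S100a9 went from 187, 191 and 193 normalized TPM in M0 to 2.1, 4.09 and 6.33 (log2 -5.56 ± 0.16, adjusted p = 7.44e-12, edgeR). S100a8 went from 93.2, 97.5 and 104 to 26.3, 33.7 and 38.5 (log2 -1.58 ± 0.12, adjusted p = 1.23e-07). S100a9 was thus above S100a8 in each M0 library, with ratios of 1.8 to 2.05, and below it in each M1 library.

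Lcn2 and Csf3r were higher in M1. Lcn2 was at 24.7, 26.5 and 27.2 normalized TPM in M0 and 885, 889 and 1052 in M1, a 36.4-fold difference (log2 5.19 ± 0.08, adjusted p = 6.21e-14, edgeR). Csf3r was at 54, 58.6 and 59.5 in M0 and 120, 122 and 138 in M1 (2.17-fold, log2 1.1 ± 0.05, adjusted p = 8.88e-10). Cxcr2 was low throughout, at 1.53 to 1.61 in M0 and 0.652 to 0.935 in M1, and its log2 change of -1 ± 0.21 (adjusted p = 0.000868) did not pass the fold threshold. In all, 2 genes were called higher, against 20.1% of all tested genes, and 7 of 10 lower, against 26%. Among 20 other neutrophil genes, 8 of 15 tested were called higher, among them Fpr1, Trem1, Clec4d and Hdc, and 5 lower (Mpo, Prtn3, Cd177, Mmp8 and Padi4).

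M2 libraries differed from M0 in fewer genes than M1 did. Retnlg was at 1.71, 1.92 and 2.1 normalized TPM against 6.39, 7.57 and 9.95 in M0 and was the 1 gene called (4.28-fold lower, log2 -2.1 ± 0.27, adjusted p = 3.01e-05, edgeR; background 11% called higher and 11.3% lower). Without the second M2 or the third M0 library 2 genes were called. Ngp (log2 -0.45 ± 0.07), Elane (-1.02 ± 0.26), S100a9 (0.21 ± 0.08), Csf3r (0.56 ± 0.07) and Cxcr2 (0.52 ± 0.15) had adjusted p under 0.05 without reaching the fold threshold. Ltf (-0.13 ± 0.1), Camp (-0.04 ± 0.2), Lcn2 (-0.07 ± 0.09) and S100a8 (0.16 ± 0.08) did not pass either. M1 against M2 gave 1 gene higher, Lcn2 (log2 5.16 ± 0.09), against 20.1% of all genes, and 8 lower, Cxcr2 included (log2 -1.62 ± 0.21, adjusted p = 5.39e-06), against 27.9%.

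**Figure D5:**
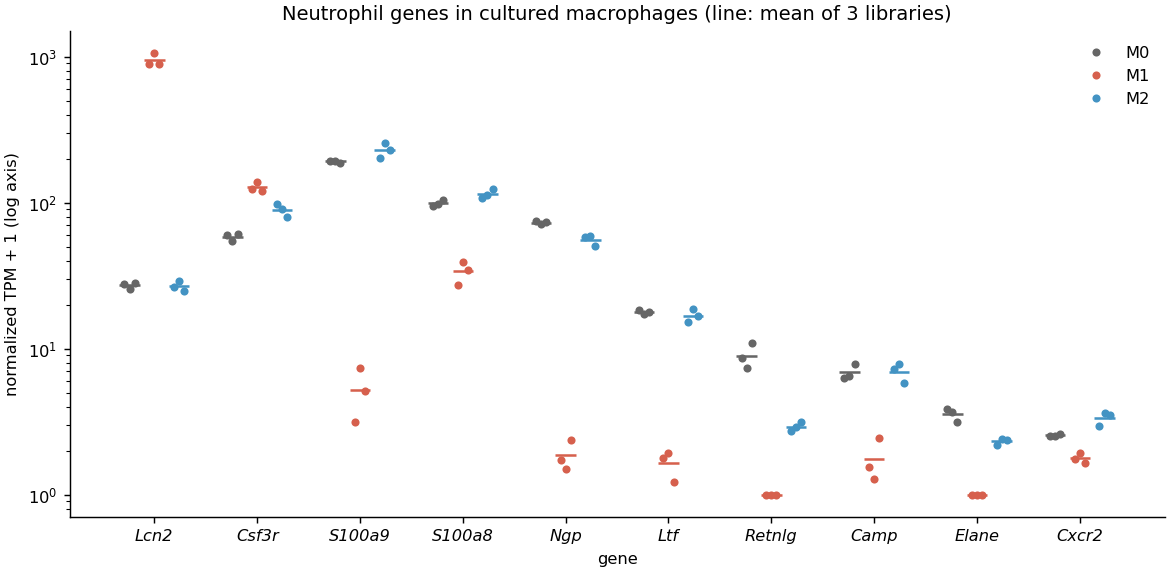
Normalized TPM plus 1 (log axis) of the 10 genes in M0, M1 and M2 macrophages, 1 point per library and a line at the mean of 3. Lcn2 and Csf3r are highest in M1, and the other 8 genes are lowest there, with Retnlg and Elane at 0 in all 3 M1 libraries.

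In the macrophage libraries 6 macrophage genes (Adgre1, Csf1r, Cd68, Mrc1, C1qa and C1qb) were high, summing to 9022 to 9731 normalized TPM in M0 and 7194 to 7456 in M1. In the digits the same sum was 42.7 to 95.7 at 24 hours and 72.8 to 221 at 3 days. B-lineage genes, markers of other bone marrow cells, summed to 12 to 13.8 in M0, 0.945 to 1.45 in M1 and 2.99 to 3.95 in M2, and Mpo and Prtn3, made by granulocyte precursors, fell in M1 with Elane. The part of other bone marrow cells in the granule gene values was not tested. Digit and macrophage tables were normalized separately, and their libraries differ in depth. Levels set side by side across them are therefore not on 1 scale.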

How the data were processed

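RNA was sequenced as 65-base single reads from polyA-selected LM-Seq libraries of 41 digits and 9 macrophage samples. Per the study's methods the authors aligned reads with Bowtie to mouse transcripts and estimated counts with RSEM 1.2.3 (mm10 in the labels). The deposited expected counts were rounded and tested here; strand use in counting is not given in the sources used here. The deposited signal is TPM that the authors scaled between libraries by the median of ratios, separately for digits and macrophages, and it was used for levels only. There were 26 gene names that the deposited tables held as dates, and they were restored. No replicate pair agreed within sampling noise (chi-square per degree of freedom 3.05 to 411 over 55 pairs).

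Each pair of groups was fitted with edgeR 4.0.16 (R 4.3.3; filterByExpr, TMM, quasi-likelihood, Benjamini-Hochberg over all genes tested). A call needed an adjusted p under 0.05 and group means of normalized counts, with 1 added, that differed over 2-fold; differences between changes had no fold threshold. The fits were tested on simulated data first. Intervals are exact at 95%, a floor is 3 counts, and both cover counting error only. Alternatives were DESeq2 1.42.0, median-ratio size factors, no filter, no fold threshold, all digits in 1 fit with and without date period, a replicate block and leaving out each library. The genes, lists and motifs were chosen with earlier results of these data known. The text names all 10 genes, and of the other lists some of the members called and the 3 genes most like S100a8 and Cxcr2 by rank. Some results for single genes of the other lists are not reported here.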

Additional observations from a re-analysis of the deposited data

Results flagged for a closer look

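Only the 7-day group, with 5 digits, was large enough for a test of single outlying digits, and 3 of 7 genes tested there held a digit far from the others by Dixon's criterion, which chance meets in about 1 in 20 groups of continuous values. For Ltf and Retnlg the other 4 digits were at 0, so a count in any 1 digit meets the criterion by construction, and that rate does not apply to them. Ltf was at 1.81 normalized TPM in the 75% digit and at 0 in the rest. Csf3r was at 8.03 in the 73% digit, the digit with the lowest S100a9 of its day. Retnlg was at 42.5 in the 65% digit, the library with counts for the fewest genes, and at 0 in the rest.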

How the results depend on the processing

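Of 425 refitted values of called genes, 385 kept their call, 40 lost it and 0 changed direction. The 37 values without the fold threshold could not lose a call, since that setting only drops a condition. Leaving out 1 library each (222 values) lost 20. With all digits in 1 fit the called genes numbered 1 at 6 hours, 3 at 12 hours and 1 at 3 days, then 1 at 7 days, 2 at 14 days, 0 in the windows between consecutive times and 1 in intermediate digits at 24 hours, and adding the date period gave the same 1, 3, 1, 1, 2, 0 and 1. At 24 hours S100a8, S100a9 and Lcn2 were called in both of these fits. DESeq2 called 6 in non-regenerative digits at 24 hours, with Cxcr2 and Retnlg added, and 3 at 3 days, with Lcn2 added. Over all genes it called 896 and 295 higher at these times. It called 2 at 7 days, 2 at 14 days, 1 at 21 days and 9 in the windows. It also called 4 and 1 in intermediate digits at 24 hours and 21 days, and 1 between the amputation groups at 24 hours. Without the filter 7 were called in the windows and 2 in intermediate digits at 24 hours, and without the fold threshold 6 in M2. For M2 against M0, 9945 of all 12976 tested genes had an unadjusted p under 0.05 in edgeR, so 6 of 10 does not set the list apart. The shares of all genes called without the filter, without the fold threshold or with all digits in 1 fit are not given here. In non-regenerative digits the fit without the filter also called Retnlg at 24 hours and Lcn2 at 3 days. The cause of these differences was not tested. Leaving out 1 library gave 2 to 4 calls at 6 hours, 5 to 6 at 12 hours, 3 to 6 at 24 hours, 2 to 3 at 3 days, 0 to 1 at 7 days, 0 to 4 in the windows, 0 to 3 in intermediate digits at 24 hours, 0 to 3 between the amputation groups at 24 hours, 1 to 2 in M2 and 0 to 1 for the difference of changes. With 1 sample left out, the windows gave 4 calls without the 75% digit of 3 hours, the 60% digit of 6 hours or the 64% digit of 12 hours with the lower S100a8, and 0 without the 63% or 73% digit of 24 hours.

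The replicate numbers of the macrophage libraries did not pair them (correlations of deviations -0.0792 to 0.0643 between libraries of the same number), and a fit with the replicate block called 9 genes in M1 against M0, 1 in M2 against M0 and 9 in M1 against M2, as without it. The median log2 change over all genes ran from -0.09 to 0.09 in the comparisons as reported, -0.10 to 0.23 in DESeq2 and -0.05 to 0.25 with median-ratio size factors. Depth limits the granule genes in digits, and 3 digits a group limit the rest.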
